A study of Mus musculus with 4 samples.

Results

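Rab GTPases are small GTP-binding proteins that give each membrane compartment of a cell its identity. A Rab bound to GTP sits in a membrane by lipid tails and recruits effectors that form, move, tether or fuse vesicles. Exchange factors load it with GTP, GTPase-activating proteins end the signal, and GDI carries the GDP-bound form back through the cytosol. In blood cells, Rabs are known for the release of granules, the uptake and recycling of surface receptors, and the making of lysosome-related organelles.

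The members described here are the protein-coding genes whose mouse symbol is Rab followed by a number and, where present, a letter. They had to reach at least 10 counts summed over the 4 libraries, and all 59 genes with such symbols did, of 45232 gene rows in the files. Effectors and regulators whose names begin with Rab were not members. RNA was sequenced from LSK cells, a cell fraction gated on Sca-1 and Kit without lineage markers, in which mouse blood-forming stem cells and early progenitors are found. GFP-positive LSK cells were sorted 3 months after transplantation of GFP-positive long-term stem cells in which the microRNA miR-99 was knocked down (miR-99 KD, 2 libraries) or that carried a scrambled control (Scr, 2 libraries). The design gives 2 mice per group. All 4 libraries come from cells that were transplanted and sorted by GFP, so none is of unmanipulated cells. The labels used here do not state the strain, age or sex of donors and hosts. The question of the single comparison is how RNA levels of engrafted LSK cells differ with the knockdown.

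Gene counts per library ran from 27295197 to 32350590, and members took 0.425% and 0.381% of them in miR-99 KD 1 and 2, against 0.435% and 0.433% in Scr 1 and 2. Kit, a sorting marker, stood at 670 and 774 CPM (a gene's count relative to library size, on the usual CPM scale, with sizes adjusted by TMM) in miR-99 KD 1 and 2 and at 1149 and 1280 in Scr 1 and 2. Ly6a, which encodes the other sorting marker Sca-1, had 12.4 and 22.3 CPM in miR-99 KD and 46.5 and 22.8 in Scr. The neutrophil marker list of 16 genes summed to 32135 and 5761 CPM in miR-99 KD 1 and 2, against 9033 and 6646 in Scr 1 and 2, and all 16 were highest in miR-99 KD 1. A list of 13 B cell genes summed to 347 and 99.6 CPM in miR-99 KD and to 99.3 and 46.4 in Scr, and none of the 13 was at 0 in all libraries. The mature microRNA is not counted in these libraries, and 0 reads were counted for Mir99a, Mir99b or Mir100 in any of the 4.

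The Rab repertoire was broad and led by few genes. Levels between genes are compared as CPM per kilobase of annotated exon (the union of all transcripts of the gene). The mean over the 4 libraries ran from 0.0319 to 115 per kilobase, with a median of 8.46. The 10 highest members were Rab7, Rab10, Rab2a, Rab1b, Rab38, Rab8b, Rab1a, Rab6a, Rab11a and Rab4a. They made up 60.4% and 65.4% of the summed Rab level per kilobase in miR-99 KD 1 and 2 and 61.6% and 60.7% in Scr 1 and 2. These genes serve the endoplasmic reticulum and Golgi (Rab1, Rab2, Rab6), recycling endosomes (Rab4, Rab11), export to the surface (Rab8, Rab10) and late endosomes and lysosomes (Rab7, Rab38). No early endosome Rab was among them, and the highest of that group, Rab31, ranked 13. In 24 members the level was 10 or more per kilobase in each library, and in 13 it was under 1 in each.

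**Figure D1:**
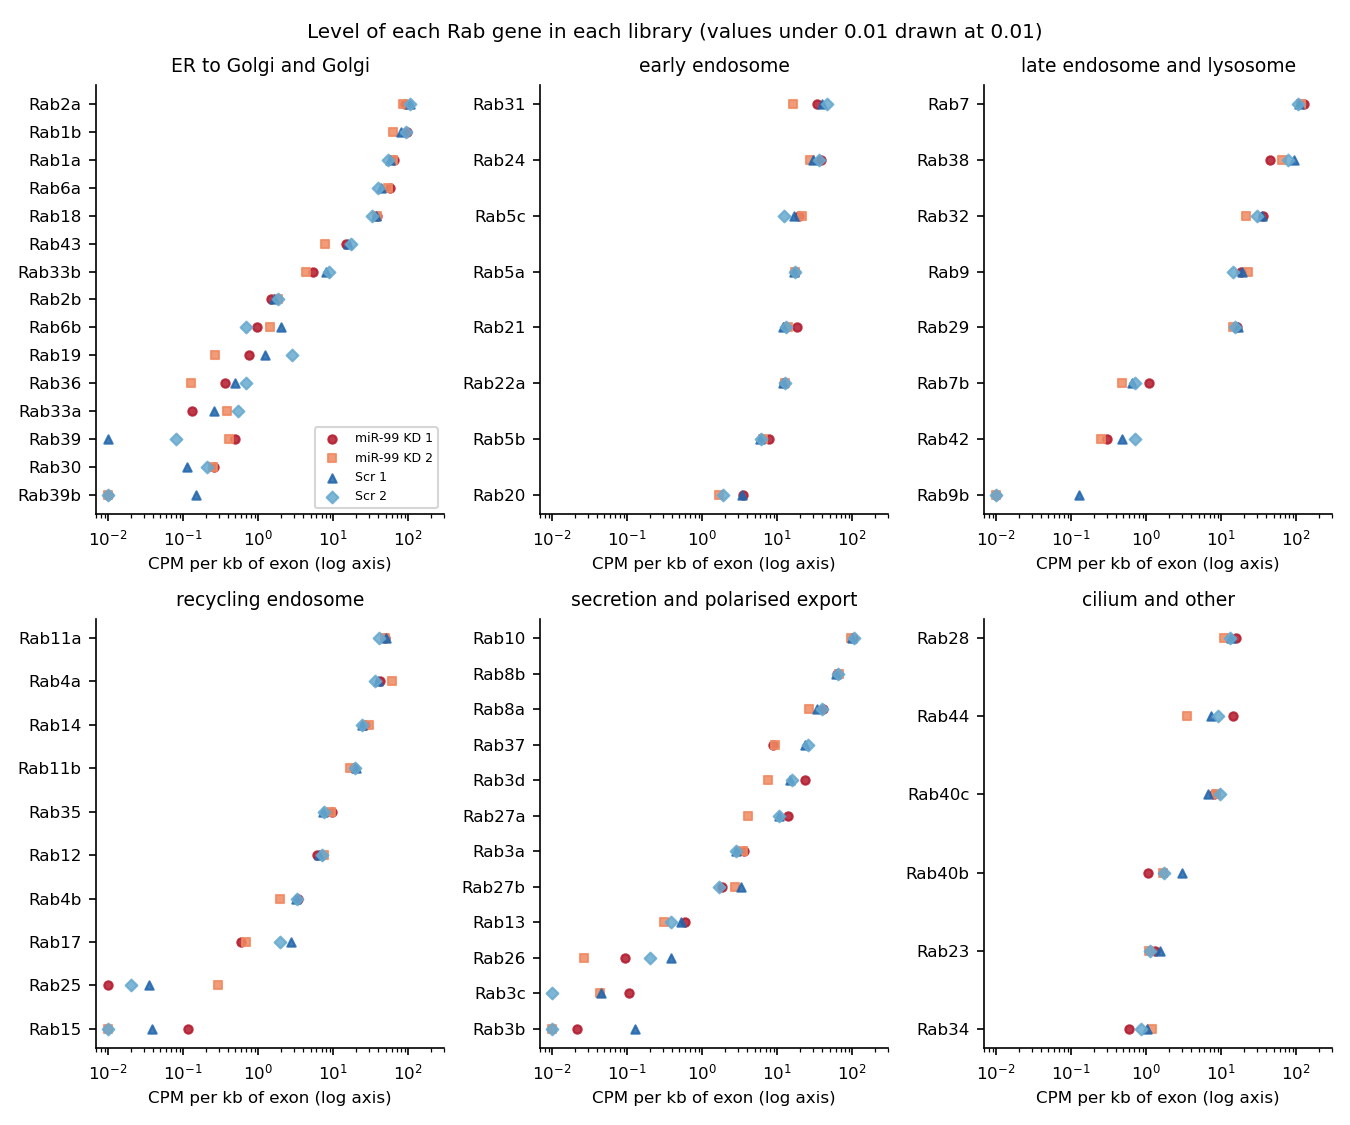
CPM per kilobase of exon (x axis, log scale) of each of the 59 Rab genes (y axis) in 6 role groups, with 1 symbol per library, red and orange for miR-99 KD 1 and 2 and dark and light blue for Scr 1 and 2, and values near 0 drawn at the left edge. Points of the abundant genes lie close together, whereas genes under 1 per kilobase, such as Rab39 or Rab26, spread widely on the log axis.

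The highest member of each role group showed little difference between the groups of libraries, apart from Rab31. Rab7, which governs transport to and fusion with lysosomes, stood at 129 and 116 CPM per kilobase in miR-99 KD 1 and 2 and at 109 and 106 in Scr 1 and 2. Rab10, which acts in export to the plasma membrane, stood at 103 and 96.7 per kilobase in miR-99 KD and at 99.7 and 106 in Scr, with groups that overlapped, although with library totals as the only scaling both knockdown libraries lay below both Scr libraries. Rab2a, which acts between the endoplasmic reticulum and Golgi, stood at 91.8 and 85.3 per kilobase in miR-99 KD and at 106 and 105 in Scr. Both knockdown libraries were thus above both Scr libraries for Rab7 and below them for Rab2a, by log2 differences in CPM of 0.19 ± 0.13 and -0.25 ± 0.13. Here and in what follows the error of a log2 difference is a standard error derived from the edgeR fit, with n = 2 libraries in each group. Rab11a, the recycling endosome Rab, stood at 49.8 and 49.3 per kilobase in miR-99 KD and at 51.4 and 41.2 in Scr. Rab28, a Rab with a role at the cilium, stood at 15.6 and 10.8 per kilobase in miR-99 KD and at 13.4 and 13.1 in Scr, so that both genes overlapped. Rab31, which works between the trans-Golgi and early endosomes, stood at 33.7 and 16.3 per kilobase in miR-99 KD and at 39.2 and 46.3 in Scr.

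No Rab gene passed the main test. At an unadjusted p the share of lower members was close to that of all genes, and the share of higher members was smaller. Counts were tested with the quasi-likelihood method of edgeR, and p-values were adjusted by Benjamini-Hochberg over all genes. It called 0 of 54 tested members and 0 of all 15320 genes (0.0%) at an adjusted p of 0.05, as did limma-voom. At an unadjusted p under 0.05 it counted 1 member higher and 5 lower, or 1.85% and 9.26%, where 5.97% and 9.63% of all genes were (15.6% in all). With libraries scaled by their totals alone the split was 0 higher and 6 lower, against 503 higher and 1898 lower among all genes in place of 915 and 1475. DESeq2 called 2 members, Rab37 and Rab17, both lower, where it called 5.79% of all genes, 1.66% higher and 4.13% lower. The p-values set the difference between the groups against the spread between the 2 libraries of each group, estimated in part across genes.

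In 26 members the groups did not overlap, or 48.1%, where 50.5% of all genes did not. The knockdown libraries were the higher ones in 13 of these and the lower ones in 13, and 28 members overlapped. These shares, 24.1% in each direction, are near the 24.5% higher and 26.0% lower of all genes tested. With libraries scaled by their totals alone the counts were 12 above and 16 below for members, and 2765 and 4888 in place of 3750 and 3983 for all genes. The median log2 difference was -0.04 over the tested members and 0.02 over all genes. Of the tested members, 49 passed the filter on low counts through both groups, and in these the counts were 12 above, 11 below and 26 overlapping, with a median of -0.04. Rab26 and Rab42 passed it through Scr alone and Rab39 through miR-99 KD alone, so these 3 had to differ to be tested.

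**Figure D2:**
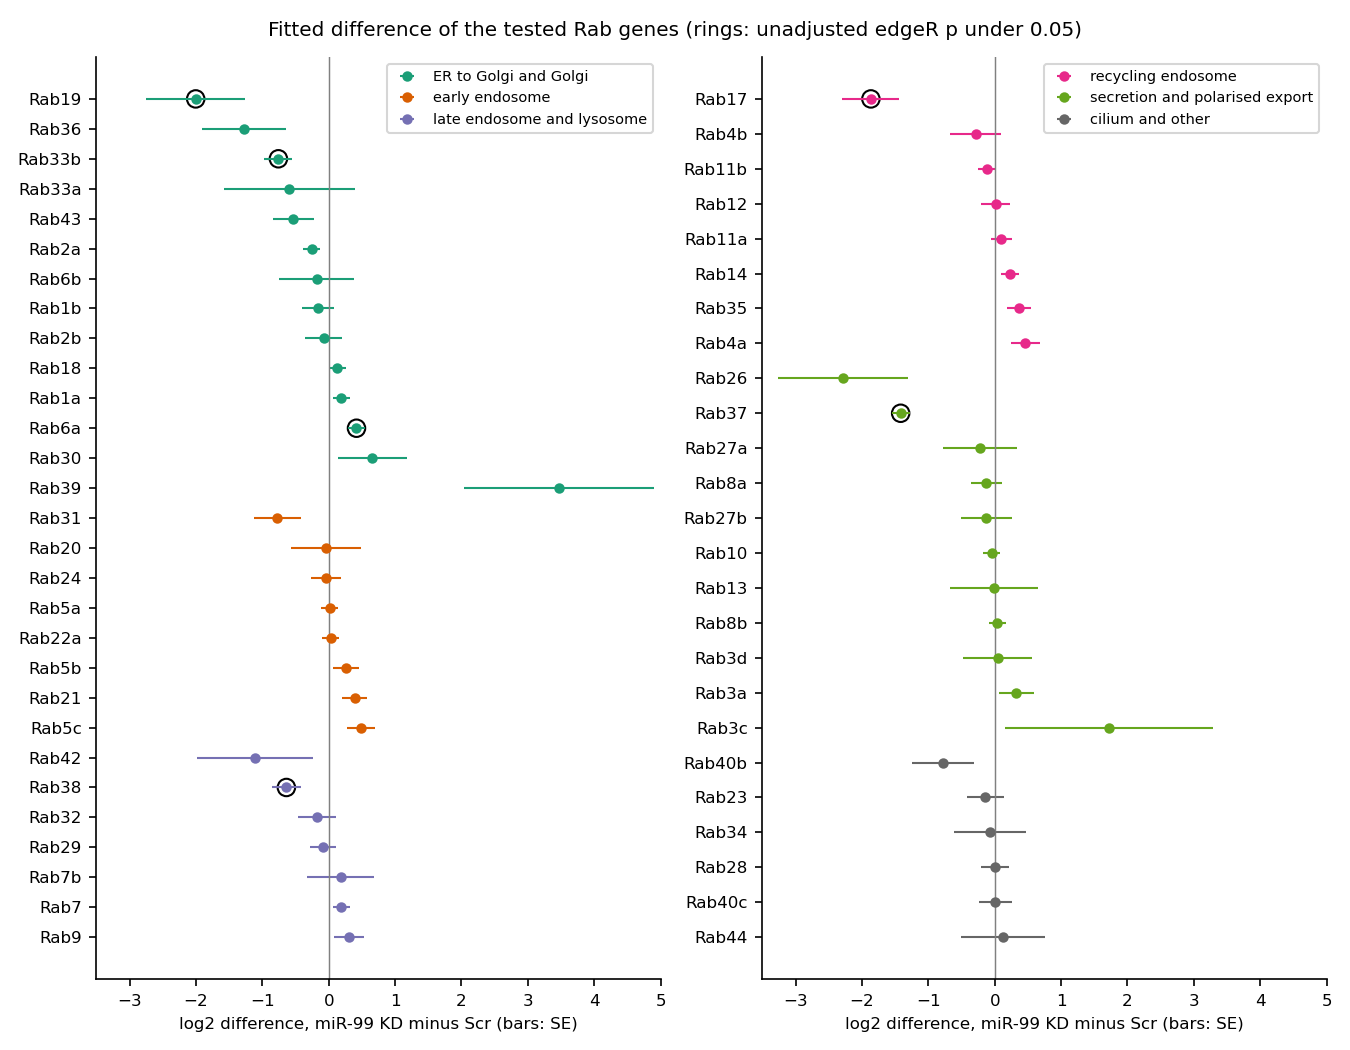
Fitted log2 difference, miR-99 KD minus Scr (x axis), with its standard error for the 54 tested Rab genes (y axis), coloured by role group and ringed at an unadjusted edgeR p under 0.05. The 6 rings lie on Rab19, Rab33b, Rab6a, Rab38, Rab17 and Rab37, of which Rab6a alone is above 0, and the widest bars belong to scarce genes such as Rab39, Rab3c and Rab26.

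By role, the summed CPM of the Rab genes overlapped between the groups in all role groups but that of recycling endosomes. Rabs of secretion and polarised export summed to 1082 and 917 CPM in miR-99 KD 1 and 2, against 1070 and 1137 in Scr 1 and 2. Rabs of the Golgi and of traffic to it summed to 1257 and 1101 CPM in miR-99 KD, against 1184 and 1167 in Scr. The groups overlapped in both sums, whereas the recycling endosome Rabs summed to 759 and 827 CPM in miR-99 KD, above the 722 and 691 in Scr. With library totals as the only scaling that sum overlapped too, at 734 and 804 CPM in miR-99 KD and 747 and 709 in Scr, and the sums of 2 groups were below both Scr libraries in both knockdown libraries. These were secretion, at 1046 and 892 CPM in miR-99 KD against 1107 and 1165 in Scr, and late endosome and lysosome, at 534.1 and 505 CPM in miR-99 KD against 593 and 534.3 in Scr.

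Rab37 was the clearest member, at a level in miR-99 KD that was 0.375 of that in Scr. Rab37 (ENSMUSG00000020732) acts in the release of secretory granules and was first described in mast cells. It had 1248 and 1336 counts in miR-99 KD 1 and 2, or 47.3 and 50.3 CPM, against 4178 and 3953 counts in Scr 1 and 2, or 125 and 136 CPM. The 4 values form 2 tight pairs, with both knockdown libraries far below both Scr libraries. The log2 difference was -1.42 ± 0.14, at an edgeR adjusted p of 0.191 and a DESeq2 adjusted p of 3.6e-13. No gene tested had a lower edgeR adjusted p, but Benjamini-Hochberg adjustment can give several genes the same value. The 0.191 therefore does not rank Rab37 first among all genes. With each library left out in turn the difference stayed between -1.50 and -1.37 in edgeR, which called the gene in 2 of 4 such fits, those that left out a knockdown library. DESeq2 called it in all 4, at adjusted p up to 0.0195. No exon of Rab37 overlaps another gene of the annotation used here.

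Marker lists of cell types differed between the groups in both directions. The stem cell list of 18 genes summed to 2492 and 2691 CPM in miR-99 KD 1 and 2, against 4850 and 5287 in Scr 1 and 2. In both knockdown libraries 13 of 18 genes were below both Scr libraries and 1 was above, and none was at 0. Of all genes tested, 26.0% were below and 24.5% above. The erythroid-megakaryocytic list of 20 genes summed to 14807 and 17290 CPM in miR-99 KD and to 10552 and 10139 in Scr. Of these 20, 12 were above both Scr libraries and 3 below. The mast cell and basophil list of 10 genes summed to 203 and 178 CPM in miR-99 KD and to 145 and 71.7 in Scr. Of these 10, 2 were above both Scr libraries and 0 below. The part of these cell types in the Rab37 difference was not tested. In bulk libraries fewer cells of a type and less RNA per cell cannot be told apart.

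The nearest granule Rabs did not form one pattern with Rab37. Rab26, the closest relative of Rab37 and a Rab of secretory granules, had 7 and 2 counts in miR-99 KD 1 and 2, against 37 and 17 in Scr 1 and 2. These groups did not overlap, but Rab26 passed the filter on low counts through Scr alone, so they had to differ for it to be tested. The log2 difference was -2.28 ± 0.99 at an edgeR adjusted p of 0.342. It ran from -3.42 with miR-99 KD 1 left out to -1.66 with miR-99 KD 2 left out. Traf7, a far more abundant gene on the same strand, shares 9.36% of the exon length of Rab26, and reads from the shared stretch cannot be told apart. Rab27b, which acts in granule and dense-granule release, had 518 and 775 counts in miR-99 KD and 1177 and 525 in Scr, so that the groups overlapped. Rab8b and Rab10, which serve constitutive export, stood at 298 and 317 and at 362 and 340 CPM in miR-99 KD, against 291 and 310 and 350 and 374 in Scr, with groups that overlapped for both.

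Rab17 was also lower in miR-99 KD, at a much lower level than Rab37. It is best known from epithelial cells, where it acts in recycling and transport across the cell. It had 31 and 37 counts in miR-99 KD 1 and 2, or 1.17 and 1.39 CPM, against 185 and 112 in Scr 1 and 2, or 5.53 and 3.84 CPM. The groups did not overlap, and the log2 difference was -1.86 ± 0.43 at an edgeR adjusted p of 0.226. The DESeq2 adjusted p was 0.0355, and the call was lost in each of the 4 DESeq2 fits that left out a library, where the adjusted p was 0.151 to 1.0.

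**Figure D3:**
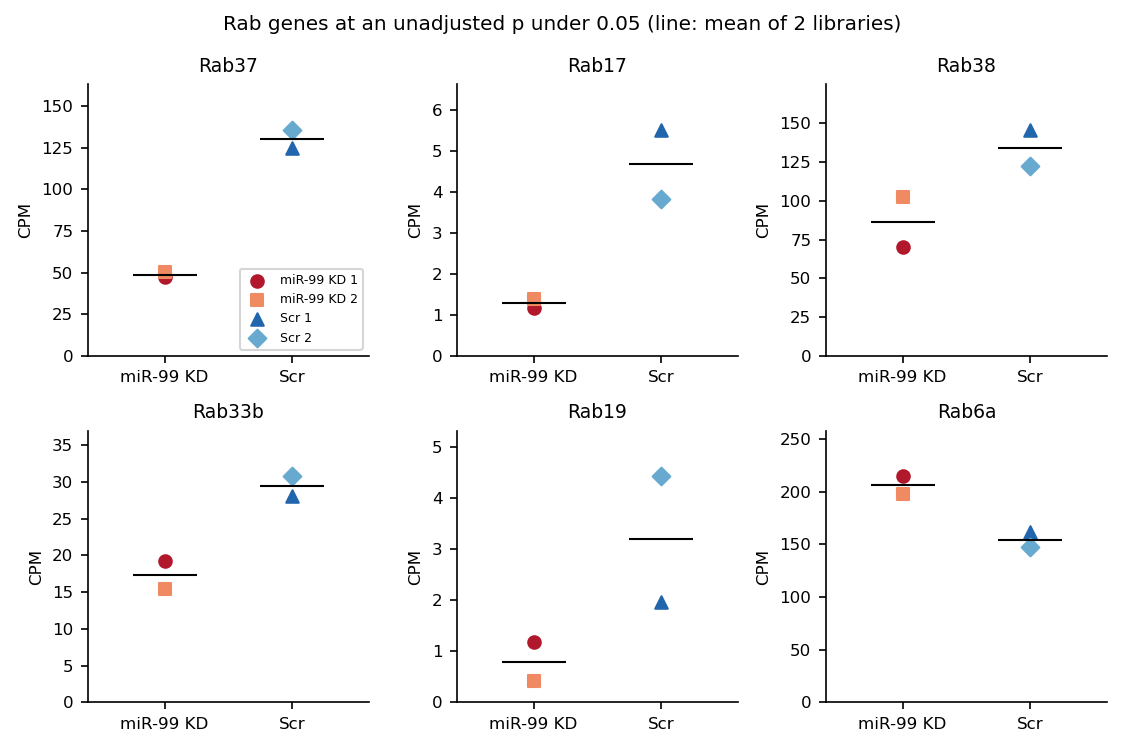
CPM (y axis, from 0) of the 6 Rab genes with an unadjusted edgeR p under 0.05, with 1 point per library and a line at the mean of 2 libraries, miR-99 KD at the left and Scr at the right of each panel. The groups do not overlap in any panel, and the gap is widest against the spread in Rab37, at 47.3 and 50.3 against 125 and 136 CPM.

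Of the Rabs of lysosome-related organelles, Rab38 had groups that did not overlap and its partner Rab32 had groups that did. Both are known for the making of melanosomes, and Rab38 is the gene altered in the chocolate coat colour mouse. Rab38 had 70.2 and 102 CPM in miR-99 KD 1 and 2, against 146 and 122 in Scr 1 and 2. Both knockdown libraries were below both Scr libraries, and they differed from each other by more than the Scr libraries did. The log2 difference was -0.64 ± 0.22 at an edgeR adjusted p of 0.292, and it was -0.39 when miR-99 KD 1 was left out and -0.93 when miR-99 KD 2 was. Rab32 had 85.4 and 49.6 CPM in miR-99 KD and 82.1 and 70.3 in Scr, with groups that overlapped. Whether the differences of the pair are unlike was not tested. Rab42, with 6 and 5 counts in miR-99 KD and 12 and 16 in Scr, was near the limit of detection and passed the filter on low counts through Scr alone.

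The Golgi group held members on both sides. Rab33b, a Golgi Rab that binds the autophagy protein Atg16l1, had 19.3 and 15.5 CPM in miR-99 KD 1 and 2, against 28.0 and 30.8 in Scr 1 and 2. The groups did not overlap, and the log2 difference of -0.76 ± 0.21 had an edgeR adjusted p of 0.240. Its relative Rab33a had 4 and 12 counts in miR-99 KD and 10 and 18 in Scr, which overlap. Rab6a, which drives transport from endosomes to the Golgi and from the Golgi to the endoplasmic reticulum, went the other way. It had 215 and 198 CPM in miR-99 KD 1 and 2, against 161 and 147 in Scr 1 and 2, a log2 difference of 0.42 ± 0.13 at an edgeR adjusted p of 0.270. Rab6a shares 19.0% of its exon length with Mrpl48 on the opposite strand, and the strand setting of the counting is not known here. Rab6b, the relative best known from neurons, had 4.85 and 7.15 CPM in miR-99 KD and 10.1 and 3.47 in Scr, where the Scr libraries held both extremes.

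The other Golgi-linked members named were scarce. Rab19 had 31 and 11 counts in miR-99 KD 1 and 2, against 66 and 129 in Scr 1 and 2, a level in miR-99 KD that was 0.248 of that in Scr, with an edgeR adjusted p of 0.306. Its log2 difference was -2.94 when miR-99 KD 1 was left out, -1.44 when miR-99 KD 2 was and -1.31 when Scr 2 was. Rab36 had 59 and 21 counts in miR-99 KD and 101 and 126 in Scr, with an edgeR adjusted p of 0.383, and its log2 difference ran from -2.21 with miR-99 KD 1 left out to -0.71 with miR-99 KD 2 left out. Both genes had groups that did not overlap. Rab39 passed the filter on low counts through miR-99 KD alone, so its groups had to differ for it to be tested. It had 39 and 32 counts in miR-99 KD, against 0 and 7 in Scr, a fitted log2 difference of 3.47 ± 1.43 at an edgeR adjusted p of 0.330. With these few counts the value was 2.43 when Scr 1 was left out and 8.27 when Scr 2 was. Its relative Rab39b had 17 counts in Scr 1 and 0 in the other libraries.

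Early and recycling endosome Rabs lay on both sides. Of 8 tested early endosome members 3 were above both Scr libraries in both knockdown libraries and 1, Rab31, was below. Of 8 tested recycling endosome members 3 were above and 2, Rab17 and Rab11b, below, where 24.5% and 26.0% of all genes were. The fitted log2 differences of these lower members were -0.78 for Rab31, -1.86 for Rab17 and -0.12 for Rab11b. The higher ones differed by small amounts. Rab5c, one of 3 Rab5 genes that control fusion of early endosomes, had 42.7 and 46.8 CPM in miR-99 KD 1 and 2, against 36.8 and 26.9 in Scr 1 and 2. Rab5b was also above both Scr libraries and Rab5a overlapped, at 90.2 and 91.6 CPM in miR-99 KD and at 87.9 and 91.8 in Scr, though with library totals alone it lay below both Scr libraries. Rab4a, which returns receptors such as the transferrin receptor to the surface, had 74.3 and 107 CPM in miR-99 KD, against 68.6 and 62.7 in Scr. Rab21, Rab35 and Rab14 lay on the same side, with fitted log2 differences of 0.39, 0.37 and 0.24. The edgeR adjusted p of these 6 higher members ran from 0.351 for Rab5c to 0.550 for Rab5b.

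The miR-99 KD libraries differed from each other in several granule Rabs by more than they differed from Scr. Of 36 members with a mean of at least 10 CPM, 4 were more than 2-fold apart between miR-99 KD 1 and 2 and 0 between Scr 1 and 2, or 11.1% and 0%. Of all 9516 genes at that level, 5.49% were so in miR-99 KD and 1.59% in Scr. The 4 were Rab44, Rab27a, Rab3d and Rab31, and all but Rab31 are named because of these values. Rab44, a large Rab of mast cells and granulocytes, had 73.0 and 17.8 CPM in miR-99 KD 1 and 2, against 37.5 and 45.9 in Scr 1 and 2. Rab27a, which docks secretory and lytic granules at the membrane, had 54.6 and 15.7 CPM in miR-99 KD and 40.9 and 41.0 in Scr. Rab3d, a Rab of secretory granules, had 99.5 and 31.6 CPM in miR-99 KD and 61.7 and 65.5 in Scr.

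For Rab44, Rab27a and Rab3d the 2 Scr libraries thus lay between the 2 knockdown libraries. The direction of their difference turned with the library left out. For Rab27a the log2 difference was -1.38 ± 0.22 without miR-99 KD 1, at an edgeR adjusted p of 0.0214, and 0.42 ± 0.18 when miR-99 KD 2 was left out, at an edgeR adjusted p of 0.288. For Rab44 the values were -1.23 and 0.81, and for Rab3d they were -1.01 and 0.65, with edgeR adjusted p of 0.0302 for Rab44 and 0.0281 for Rab3d when miR-99 KD 1 was left out. DESeq2 called Rab44 in both fits and in opposite directions, at adjusted p of 0.00190 and 0.0441. Rab31 was lower in both cases, at -1.40 when miR-99 KD 1 was left out and -0.34 when miR-99 KD 2 was. All 16 genes of the neutrophil list were highest in miR-99 KD 1. Of these, 9 were lowest in miR-99 KD 2, such as Elane and Ctsg. In the other 7, such as Ngp and S100a9, miR-99 KD 2 was above Scr 2. Without Mpo the list summed to 27835 and 4261 CPM in miR-99 KD 1 and 2, against 6836 and 3603 in Scr 1 and 2. The macrophage list of 10 genes summed to 772 and 437 CPM in miR-99 KD 1 and 2, against 606 and 267 in Scr 1 and 2. The part of other cells in these values was not tested.

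**Figure D4:**
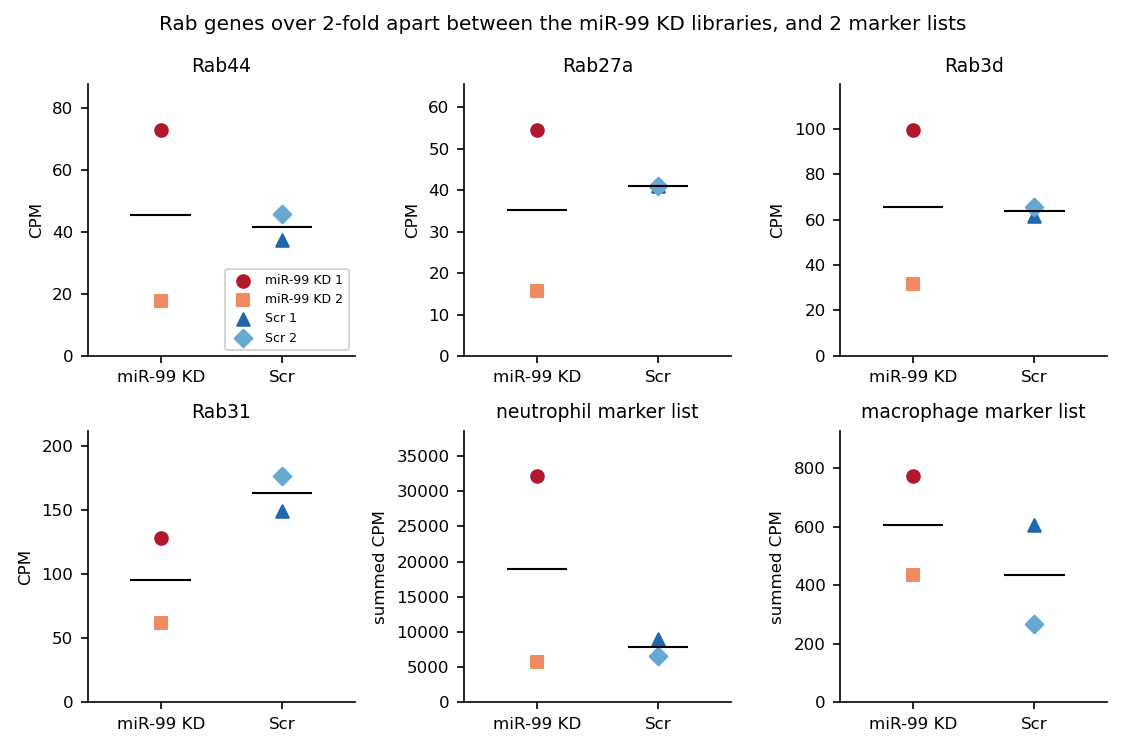
CPM (y axis, from 0) of Rab44, Rab27a, Rab3d and Rab31, and the summed CPM of the neutrophil and macrophage marker lists, with 1 point per library and a line at the mean of 2 libraries, miR-99 KD at the left and Scr at the right. In Rab44, Rab27a and Rab3d miR-99 KD 1 is the highest point and miR-99 KD 2 the lowest, with both Scr libraries between them. The neutrophil sum has that order too, but not without Mpo. Of its 16 genes, 9 are lowest in miR-99 KD 2 and 7 have miR-99 KD 2 above Scr 2.

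Within families of near copies the dominant gene was usually the same in all libraries. Rab2a made up 97.9% to 98.5% of the Rab2 level per kilobase, Rab7 at least 99.2% of that of Rab7 and Rab7b, and Rab6a 95.6% to 98.4% of the Rab6 level. Rab11a took 72.2% and 74.4% of the Rab11 level in miR-99 KD 1 and 2 and 72.1% and 68.0% in Scr 1 and 2. The value of Rab11b is uncertain, since the processed pseudogene Rab11b-ps2 had 892 and 789 counts in miR-99 KD and 1173 and 982 in Scr, and reads with several alignments were set aside. Rab27a took 88.5% and 59.7% of the Rab27 level in miR-99 KD 1 and 2, against 76.2% and 86.2% in Scr 1 and 2.

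The 5 members that did not pass the filter on low counts were Rab3b, Rab9b, Rab15, Rab25 and Rab39b. Rab9b had 17 counts in Scr 1 and 0 elsewhere, and Rab3b had 2 and 0 counts in miR-99 KD and 15 and 0 in Scr. Rab25, a Rab of epithelial cells, had 0 and 13 counts in miR-99 KD and 2 and 1 in Scr. Rab15 had 14 and 0 counts in miR-99 KD and 6 and 1 in Scr. In each of the 5 most counts came from a single library, and Scr 1, which held those of 3 of them, also had the most genes detected, 23052 against 19060 to 19717 in the others.

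The knockdown is of a microRNA family that pairs with its targets through a seed, so the 3′ untranslated regions of the members were searched for seed sites. The 3 mature members of the family share the seed, bases 2 to 8, which is in capitals here. The sequences and positions are RefSeq's on GRCm38.p6, and all are on the plus strand.
mmu-miR-99a-5p: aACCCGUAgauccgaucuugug
mmu-miR-99b-5p: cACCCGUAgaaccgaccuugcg
mmu-miR-100-5p: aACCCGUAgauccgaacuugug
They lie at chr16:77598940-77598961, chr17:17830194-17830215 and chr9:41531437-41531458.

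A perfect match to the seed, TACGGGT, was present in the longest annotated 3′ untranslated region of 1 of 59 members, or 1.69%, where 1.41% of 12801 protein-coding genes tested had one. The shorter match ACGGGT, which the longer one contains, was present in 5 of 59, or 8.47%, against 6.92%. A match is a stretch of letters and not a shown site, and the untranslated regions of members are longer, with a median of 1949 bases against 1191. The 6 matches are printed with their flanks, as DNA in the direction of the transcript and with the matching bases in capitals, to show which Rab RNAs could pair with the seed.
Rab30: tcaaactggctTACGGGTtaaaaatgga
Rab33b: atggcggtagtgACGGGTggctgcagat
Rab22a: cagttctcaaccACGGGTcttaatgtcc
Rab6b: ccttcctgtttcACGGGTgggagaacca
Rab43, first match: ctgcctgccttaACGGGTgcttcctgct
Rab43, second match: ctgactccacccACGGGTgggtactacc
The gene with the longer match, Rab30, a Golgi Rab, had 65 and 64 counts in miR-99 KD 1 and 2, against 37 and 58 in Scr 1 and 2, or 2.46 and 2.41 CPM against 1.11 and 1.99. Its log2 difference was 0.65 ± 0.52 at an edgeR adjusted p of 0.564. Of the other 4 genes, Rab33b and Rab43 had both knockdown libraries below both Scr libraries, and Rab22a and Rab6b overlapped. Rab43 had 81.1 and 43.6 CPM in miR-99 KD and 86.2 and 94.6 in Scr. Its log2 difference was -0.54 ± 0.31 at an edgeR adjusted p of 0.442. It was -1.06 when miR-99 KD 1 was left out and -0.16 when miR-99 KD 2 was. Gm45140 shares 75.4% of the exon length of Rab43 on the same strand in the annotation used here, but is not among the gene rows that were counted. Rab37, Rab17 and Rab38 hold no such match in the regions searched.

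Among the proteins that run the Rab cycle, more genes were lower than higher in miR-99 KD. Of 169 tested genes in 5 lists, 8 were higher and 29 lower at an unadjusted edgeR p under 0.05, or 4.73% and 17.2%, where 5.97% and 9.63% of all genes were. With libraries scaled by their totals alone the counts were 2 and 37. None passed at an edgeR adjusted p of 0.05. DESeq2 called 1 higher and 14 lower, where it called 1.66% of all genes higher and 4.13% lower. The lower count was 10 when Scr 2 was left out, 16 when Scr 1 was and 47 when miR-99 KD 1 was, and the share of all genes that were lower moved the same way, at 3.63%, 5.06% and 15.4%.

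Of 50 exchange factors, 2 were higher and 6 lower at an unadjusted p under 0.05, and the median log2 difference was -0.07. These counts are 4% and 12% of the list, where 5.97% and 9.63% of all genes passed. Dennd2d, of the DENN family of exchange factors, had 26.5 and 31.7 CPM in miR-99 KD 1 and 2, against 49.7 and 53.2 in Scr 1 and 2. Its log2 difference was -0.82 ± 0.18, with an edgeR adjusted p of 0.219 and a DESeq2 adjusted p of 0.00618. Dennd3, which acts on Rab12, had 11.2 and 5.50 CPM in miR-99 KD and 22.4 and 27.7 in Scr, and Rab12 itself overlapped, at 18.3 and 23.1 CPM in miR-99 KD and 19.7 and 21.3 in Scr.

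Of 41 genes of the GTPase-activating list, 1 was higher and 8 lower at an unadjusted p under 0.05, with a median of -0.19. As shares of the list these are 2.44% and 19.5%, against 5.97% and 9.63% of all genes. Tbc1d4, which acts on Rab10 and related Rabs in insulin-responsive cells, had 17.9 and 18.7 CPM in miR-99 KD 1 and 2 against 42.1 and 32.5 in Scr 1 and 2. Sgsm1 had 2.65 and 2.45 CPM in miR-99 KD and 8.46 and 17.2 in Scr. Tbc1d23, a Golgi protein of this family, had 18.2 and 13.7 CPM in miR-99 KD and 30.0 and 33.7 in Scr, and Tbc1d9b at 113 and 104 against 147 and 182. These 4 had edgeR adjusted p of 0.199 to 0.232, and DESeq2 called each.

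Of 61 tested effectors, 2 were higher and 15 lower at an unadjusted edgeR p under 0.05, with a median log2 difference of -0.26. That is 3.28% and 24.6%, where 5.97% and 9.63% of all genes passed. Exoc6b, a subunit of the exocyst that tethers vesicles to the plasma membrane, had 14.2 and 17.8 CPM in miR-99 KD 1 and 2 against 34.6 and 40.3 in Scr 1 and 2. Appl2, an effector of Rab5, had 36.6 and 34.8 CPM in miR-99 KD and 60.0 and 78.3 in Scr. Osbpl1a, an effector of Rab7 that senses cholesterol, had 58.6 and 83.0 CPM in miR-99 KD and 127 and 143 in Scr. Optn, an effector of Rab8 and an autophagy receptor, was among the 2 higher ones, at 132 and 162 CPM in miR-99 KD and 96.3 and 95.1 in Scr. The edgeR adjusted p of these 4 was 0.199 to 0.227, and DESeq2 called each.

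In the list of prenylation enzymes, GDI and chaperones, 3 of 11 genes were higher and 0 lower at an unadjusted p under 0.05. The shares are 27.3% and 0%, against 5.97% and 9.63% of all genes, and the median log2 difference was 0.20. With library totals as the only scaling 0 genes of the list passed, and the median was 0.12. Rabggtb, a subunit of the enzyme that attaches the lipid tails to Rabs, had 71.6 and 97.0 CPM in miR-99 KD 1 and 2 against 48.8 and 61.4 in Scr 1 and 2. Rabif, a chaperone of nucleotide-free Rabs, had 157 and 151 CPM in miR-99 KD and 115 and 122 in Scr, and Fntb, a subunit of farnesyltransferase, at 28.3 and 34.8 against 18.4 and 23.7. Their edgeR adjusted p was 0.278 to 0.317, and DESeq2 called 0 of the list. Of 7 tested Rab-like genes 0 passed an unadjusted p of 0.05 in edgeR, and DESeq2 called 0. Ran, the nuclear transport GTPase, had 402 and 444 CPM in miR-99 KD and 370 and 344 in Scr.

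**Figure D5:**
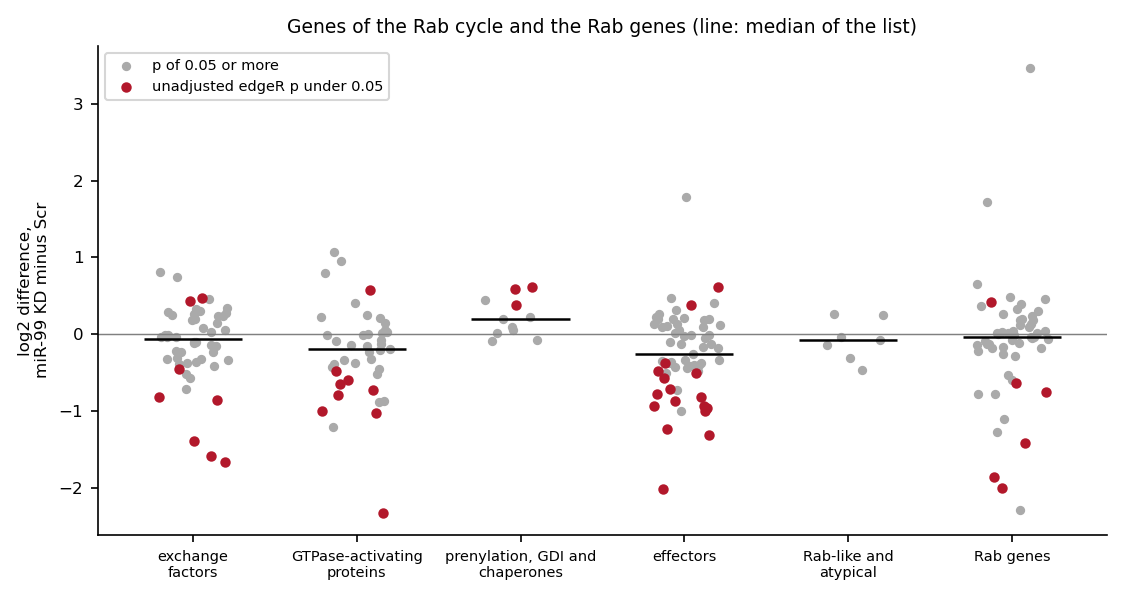
Fitted log2 difference, miR-99 KD minus Scr (y axis), of each tested gene of 5 Rab cycle lists and of the Rab genes (x axis), red at an unadjusted edgeR p under 0.05, with a line at the median of each list. The medians are -0.07 for exchange factors, -0.19 for GTPase-activating proteins, 0.20 for prenylation, -0.26 for effectors, -0.08 for Rab-like genes and -0.04 for the Rab genes.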

How the data were processed

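RNA was measured in 4 libraries of sorted LSK cells, 2 per group. Per the labels' protocols, total RNA was extracted with Trizol LS and amplified with SMARTer. The authors deposited unnormalised whole-number read counts, 1 table of Ensembl genes per library. The build mm9 and the tools HTSeq, STAR, Picard and DESeq2 are named in the submitters' processing notes, without versions, annotation release or strand setting. Rows of HTSeq classes and pasted totals entered neither library sizes nor tests. Reads with several alignments were at most 21.9% of each library and those with no feature 8.31% to 13.8%. Without molecular identifiers, PCR copies are counted too.

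Symbols (44585 of 45232 rows matched), exon lengths and 3′ untranslated regions of at least 50 bases came from GENCODE M21, a later build than mm9. Counts were tested with edgeR 4.0.16 in R 4.3.3 (filterByExpr, TMM, no replicate block). Standard errors were derived from that fit, as the size of the unshrunken log2 difference divided by the square root of the F statistic. Alternatives were DESeq2 1.42.0, limma-voom 3.58.1, 2 other scalings, 2 other filters, a gene set without globin, ribosomal protein and mitochondrial genes, a replicate block, and leaving out each library. The scripts were tested on simulated data.

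The members and lists were chosen with earlier results of these data known. Named genes are members at an unadjusted p under 0.05, members with groups that do not overlap and a log2 difference of at least 0.8 in size, their near copies, the highest member per length of each role group, and up to 4 genes of each Rab cycle list, some of which are not reported here. Others were named after their values were seen, to describe a role group or a match.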

Additional observations from a re-analysis of the deposited data

How the results depend on the processing

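The 10 members named for their test or size kept their direction in every alternative that could be fitted. This is no test of the direction, since in all 10 the groups did not overlap. Leaving out a library could thus turn it only through a change of scaling. The count of genes called, 0 in the main setting, was 887 with DESeq2, 1064 with no filter on low counts and 0 to 1013 when each library was left out. The count of Rab genes called, also 0, was 2 with DESeq2, 4 with no filter (Rab17, Rab31, Rab37 and Rab38) and 0 to 6 without each library, the 6 without miR-99 KD 1. The count of Rab genes at an unadjusted p under 0.05, 6, was 13 of 59 with no filter, where 14% of all genes passed, and 3 to 16 when each library was left out. It was 16 without miR-99 KD 1 and 3 without Scr 1, where 26.3% and 7.15% of all genes passed. Rab genes whose groups did not overlap numbered 26, 16 with a filter at 10 CPM, where fewer genes are tested, and 38 to 47 without each library, where fewer samples make overlap rarer. The median log2 difference of Rab genes, -0.04, was -0.13 with library totals alone and -0.19 to 0.04 without each library, at -0.19 when miR-99 KD 1 was left out and 0.039 when miR-99 KD 2 was. Rab cycle genes at an unadjusted p under 0.05 numbered 37, and 10 to 59 without each library. DESeq2 without each library, chosen after seeing the data, called 27 to 1506 genes and 1 to 8 Rab genes, the 1 being Rab37 without either Scr library. The cause of the other changes was not tested.

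Deviations from the group means correlated at 0.0567 between libraries of the same number, and since there are only 2 pairs no pairing was assumed. With the replicate block edgeR called 0 genes and 0 Rab genes, 6 Rab genes had an unadjusted p under 0.05, and the median of the Rab genes was -0.06. With 1 library left in a group, its spread is taken from the other group. Members under about 50 counts are limited by depth.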

Other observations

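Totals pasted below the gene rows of 3 of the files carry library names of their own. They name the library labelled Scr 1 as Scr-2, miR-99 KD 1 as Zip99a-2 and miR-99 KD 2 as Zip99a-1. A further pasted total, 29793890 under the name Scr-1, matched the gene total of none of the 4 libraries analysed here. The comparison of the groups does not use these names.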
